A study of Mus musculus with 6 samples.

Results

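Interferon response genes, a set of 31 genes taken by symbol, were examined in lymphoma B cells labelled as wild type or as knockout for Prdm15. The set was chosen with earlier results of these data known. All 31 symbols were found among the 21448 genes of the table. The cells came from primary lymphomas of mice of the E mu-Myc transgenic strain, in which an immunoglobulin heavy chain enhancer drives Myc in B-lineage cells. Both groups carry this transgene: 3 libraries have the genotype wild type and 3 the genotype PRDM15 KO, the latter called labelled knockout here. Cells of both groups were cultured in a medium with IL7, and the protocol describes 24 hours with 50 nM 4-hydroxytamoxifen (OHT) to delete Prdm15, or with ethanol as control, and collection 3 days later. The labels tie neither OHT nor ethanol to single libraries, and OHT was taken to have gone to the labelled knockout libraries. The labels do not say which recombinase responds to OHT, how many mice or tumours were used, or the age of the mice, and p-values therefore measure only how these libraries vary, which may be technical.

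Interferons are secreted proteins that bind cell surface receptors, whose JAK kinases phosphorylate transcription factors of the STAT family. A complex that holds STAT2 and IRF9 binds interferon-stimulated response elements in promoters, and IRF1 acts as a further activator. The induced genes encode sensors of viral RNA, enzymes that degrade or block viral RNA, a ubiquitin-like modifier and GTPases that attack the membranes around intracellular microbes, and B cells carry receptors for both type I and type II interferon.

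Each library held 28852951 to 47255421 reads in genes, and values are reads scaled to an effective library size (CPM), not divided by gene length, so levels of different genes are not compared. Libraries with the same replicate number deviated together and are called pairs 1, 2 and 3. Of 10 B cell markers, all tested, 7, 4 and 1 were higher in labelled knockout in pairs 1, 2 and 3. Cd79b was at 467.6, 389.3 and 516.8 CPM in wild type and 518.6, 446.5 and 452.1 CPM in labelled knockout libraries. Pax5, Vpreb1 and Cd22 were lower in each pair. Vpreb1 was at 55.8, 268.3 and 268.8 CPM in wild type and 30.8, 247.4 and 222.7 CPM in labelled knockout libraries. Cd22 was at 98.7, 124.6 and 56.2 CPM against 62.7, 39.3 and 24.6 CPM. Myeloid markers stood apart in labelled knockout replicates 2 and 3: the 18 markers summed to 275, 343 and 283 CPM in wild type replicates 1, 2 and 3 and to 237, 2902 and 1562 CPM in the matching labelled knockout libraries, with no marker at 0 reads and with 5, 18 and 18 of them higher in pairs 1, 2 and 3 (Lyz2, Ctss and Lgals3 had the highest means). The 11 T and NK cell markers, led by Klrb1c, Cd8a and Cd8b1, summed to 1.26 to 5.48 CPM in wild type and 2.18 to 16.7 CPM in labelled knockout libraries. Of them, 10, 11 and 9 were higher in pairs 1, 2 and 3, and 2 of the 11 had a mean of at least 1 CPM. Some of these differences rest on few reads: Gzma, counted as higher in pair 1, had 1 read in each library of that pair (0.0267 and 0.0333 CPM). The 6 erythroid markers summed to 0.401 to 1.504 CPM and the 6 stromal markers to 51.9 to 102 CPM over all libraries, of which Pecam1 gave 50.2 to 100.9 CPM and no other stromal marker exceeded 1.33 CPM. In a bulk sample, fewer cells of a type and less RNA per cell cannot be told apart. Prdm15 itself was at 29.2, 47.3 and 41.3 CPM in wild type and 40.2, 40.9 and 39.2 CPM in labelled knockout libraries, higher in pair 1 and lower in pairs 2 and 3, and a count that covers the full gene cannot tell a lost exon from none.

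No interferon response gene rose or fell by the threshold used, a limma adjusted p under 0.05 over all tested genes in the fit without or with the pairs. Of the 31 members, 17 had a mean of at least 1 CPM over the 6 libraries and were tested, and 14 were below it. Without the pairs, 0 tested members were higher and 0 lower, where 0.00949% of the 10533 tested genes passed, and 1 member had an unadjusted p under 0.05 (4.06% of genes). With the pairs, again 0 members were higher and 0 lower, against 0.133% of tested genes called higher and 0.741% called lower (0.873% in all), and 4 members had an unadjusted p under 0.05 (21% of genes). On the same reads and without the pairs edgeR and DESeq2 each called 0 members, where edgeR called 0% of genes and DESeq2 called 0.294% higher and 0.75% lower (1.04% in all). With the pairs edgeR called 0, where 0.0475% of genes were called higher and 0.323% lower (0.37% in all). DESeq2 with the pairs called 2, Gbp2 and Gbp3, both higher, where it called 3.02% of genes higher and 3.99% lower (7.01% in all). Quantile normalization with the pairs called 1, Gbp3, higher, where 0.313% of genes were called higher and 0.911% lower (1.22% in all). edgeR with the pairs and no filter on low values called the same 2 genes as DESeq2, where 0.487% of genes were called higher and 1.17% lower (1.66% in all), and limma with the pairs and no filter called 0 of 31 members (0.0244% of genes, all of them lower).

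The tested members did not move as a block. Their median log2 change, labelled knockout minus wild type on log2(CPM + 1), was 0.089, against -0.028 for all tested genes, with a range from -0.31 for Bst2 to 1.74 for Gbp2. Within pairs 1, 2 and 3 the member medians were 0.026, 0.15 and 0.022 and those of all tested genes were -0.053, -0.0016 and -0.042. Labelled knockout was the higher library in all 3 pairs for 6 of 17 members (16.7% of all tested genes) and the lower in all 3 for 3 of 17 (29.9%). The member median was -0.15 when labelled knockout replicates 2 and 3, which had the highest myeloid sums, were left out. The median of all tested genes was then -0.11. That fit rests on labelled knockout replicate 1 alone, which is assumed to vary like the wild type libraries. The member median was highest in pair 2, which also had the largest difference in the myeloid sum, and the part of the myeloid transcripts was not tested.

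**Figure D1:**
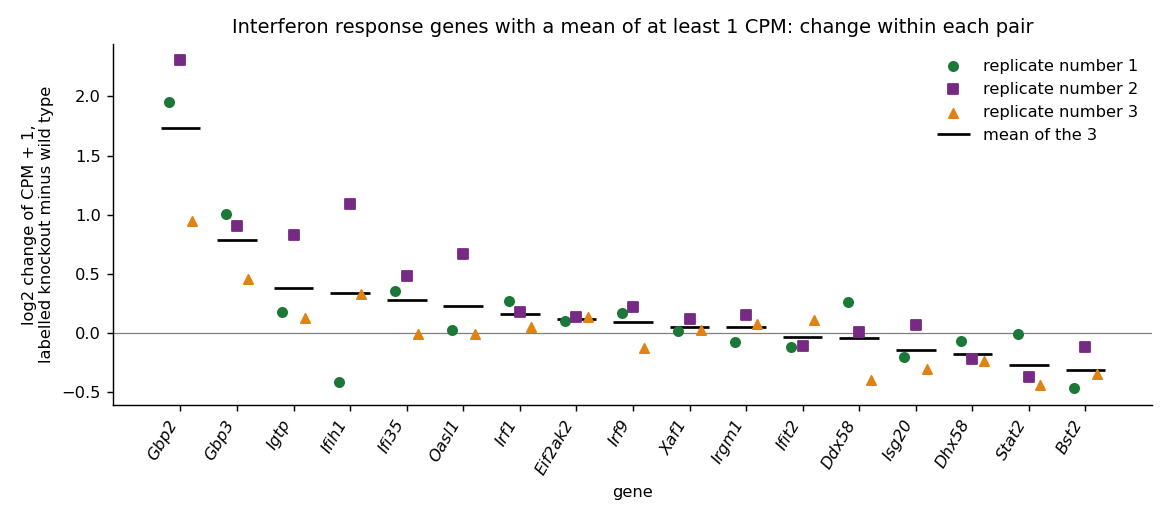
Log2 change of CPM + 1 from wild type to labelled knockout (vertical axis) for the 17 interferon response genes with a mean of at least 1 CPM, ordered by their mean change, where symbols distinguish the 3 pairs and black bars give their mean. Gbp2 at 1.95, 2.31 and 0.95 and Gbp3 at 1.005, 0.91 and 0.45 have the highest means, and the other means lie between -0.31 and 0.38.

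The guanylate binding proteins Gbp2 and Gbp3, GTPases that coat the vacuoles of intracellular microbes, had the largest log2 differences among the tested members. In wild type, Gbp2 (ENSMUSG00000028270) measured 25.8, 10.50 and 39.7 CPM in replicates 1, 2 and 3, and in labelled knockout it measured 102.8, 55.9 and 77.7 CPM. Every labelled knockout library lay above every wild type library, as for 3.21% of tested genes (6.29% had all of them below), and Gbp2 was the only tested member without overlap, with a level 3.98, 5.32 and 1.96 times wild type in pairs 1, 2 and 3. The means were 25.3 ± 14.6 and 78.8 ± 23.5 CPM (SD, n = 3), with a log2 change of 1.74 (limma 95% interval with the pairs 1.08 to 2.39, adjusted p = 0.0616 with the pairs and 0.956 without). An exact two-sided permutation test of Gbp2 gave p = 0.1, the smallest that 3 against 3 libraries allow. DESeq2 with the pairs called Gbp2 (adjusted p = 0.000340) and edgeR with the pairs did not (adjusted p = 0.0845).

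Gbp3 (ENSMUSG00000028268) was at 50.3, 52.4 and 121 CPM in wild type and at 102, 99.1 and 166 CPM in labelled knockout replicates 1, 2 and 3. Wild type replicate 3 reached into the labelled knockout range, so the groups overlapped, while each pair had the higher level in the labelled knockout library, at 2.03, 1.89 and 1.37 times wild type. The log2 change was 0.79 (limma 95% interval with the pairs 0.49 to 1.08, adjusted p = 0.0590 with the pairs and 0.9998 without). DESeq2 with the pairs called Gbp3 (adjusted p = 4.04e-08) and edgeR with the pairs did not (0.0782). The myeloid sum went from 275 to 237 CPM in pair 1, from 343 to 2902 CPM in pair 2 and from 283 to 1562 CPM in pair 3, where the log2 differences were 1.95, 2.31 and 0.95 for Gbp2 and 1.005, 0.91 and 0.45 for Gbp3, and its part was not tested. Without labelled knockout replicates 2 and 3 the log2 changes were 2.16 for Gbp2 and 0.57 for Gbp3, which rest on labelled knockout replicate 1 alone. With the pairs and without pair 1, limma called both (adjusted p = 0.00903 and 0.00905) among 4.61% of genes called higher and 3.36% called lower (7.97% in all). Without pair 2 or pair 3 it called neither (0.255 and 0.0941 for Gbp2, 0.287 and 0.129 for Gbp3). Each of those last fits called 0 of 10533 genes higher and 0 lower.

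The promoter windows of Gbp2 and Gbp3 are shown with those of Isg15 and Rsad2, members under 1 CPM, as examples from above and below 1 CPM that hold the core of an interferon-stimulated response element, picked with their values known. The windows run from 250 bases before to 50 bases after the annotated gene start (RefSeq, build GRCm38.p6, a later build than the mm9 of the deposited data), 5′ to 3′ on the strand of the gene, and capitals mark every match to GAAANNGAAA on either strand. The Gbp2 window is chr3:142620413-142620712 on the plus strand, the Gbp3 window chr3:142559794-142560093 on the plus strand, the Isg15 window chr4:156200769-156201068 on the minus strand and the Rsad2 window chr12:26456403-26456702 on the minus strand.
Gbp2: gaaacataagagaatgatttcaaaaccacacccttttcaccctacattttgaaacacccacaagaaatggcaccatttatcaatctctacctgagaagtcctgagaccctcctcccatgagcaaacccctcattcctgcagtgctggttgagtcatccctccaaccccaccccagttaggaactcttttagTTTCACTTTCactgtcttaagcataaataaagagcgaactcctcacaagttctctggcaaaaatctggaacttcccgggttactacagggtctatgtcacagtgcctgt
Gbp3: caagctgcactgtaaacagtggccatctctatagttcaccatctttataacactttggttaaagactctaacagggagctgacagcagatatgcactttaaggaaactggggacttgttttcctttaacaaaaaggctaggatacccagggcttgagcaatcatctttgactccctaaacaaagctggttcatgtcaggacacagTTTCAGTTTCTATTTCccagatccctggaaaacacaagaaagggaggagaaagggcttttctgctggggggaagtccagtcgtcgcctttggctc
Isg15: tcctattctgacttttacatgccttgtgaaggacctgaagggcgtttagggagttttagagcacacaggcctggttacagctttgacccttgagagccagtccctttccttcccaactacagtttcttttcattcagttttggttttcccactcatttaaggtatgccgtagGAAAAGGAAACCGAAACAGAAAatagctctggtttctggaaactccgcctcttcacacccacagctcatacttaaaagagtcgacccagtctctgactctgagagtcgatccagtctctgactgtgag
Rsad2: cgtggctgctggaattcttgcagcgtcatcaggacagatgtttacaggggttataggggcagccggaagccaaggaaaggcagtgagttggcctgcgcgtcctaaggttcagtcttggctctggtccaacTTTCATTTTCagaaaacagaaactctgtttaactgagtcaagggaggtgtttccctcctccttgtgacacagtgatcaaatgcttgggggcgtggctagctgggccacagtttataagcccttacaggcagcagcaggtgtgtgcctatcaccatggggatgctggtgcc

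The match in Gbp2, TTTCACTTTC, begins 59 bases before the gene start. Gbp3 has overlapping matches that begin 45 and 39 bases before it, and its second annotated start has no match. Isg15 holds 3 overlapping matches and Rsad2 a single one, TTTCATTTTC.

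The immunity-related GTPases Igtp and Irgm1, which belong to another family of interferon-induced GTPases, differed less between the groups. Igtp was at 9.70, 7.62 and 13.5 CPM in wild type and at 11.1, 14.3 and 14.8 CPM in labelled knockout libraries. It was higher in each pair, by the largest amount in pair 2, and the groups overlapped (log2 change 0.38, 95% interval with the pairs -0.040 to 0.79, adjusted p = 0.269 with the pairs). Irgm1 was at 36.6 ± 5.37 and 38.0 ± 6.38 CPM, a log2 change of 0.050 (95% interval with the pairs -0.13 to 0.23), and was lower in pair 1.

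**Figure D2:**
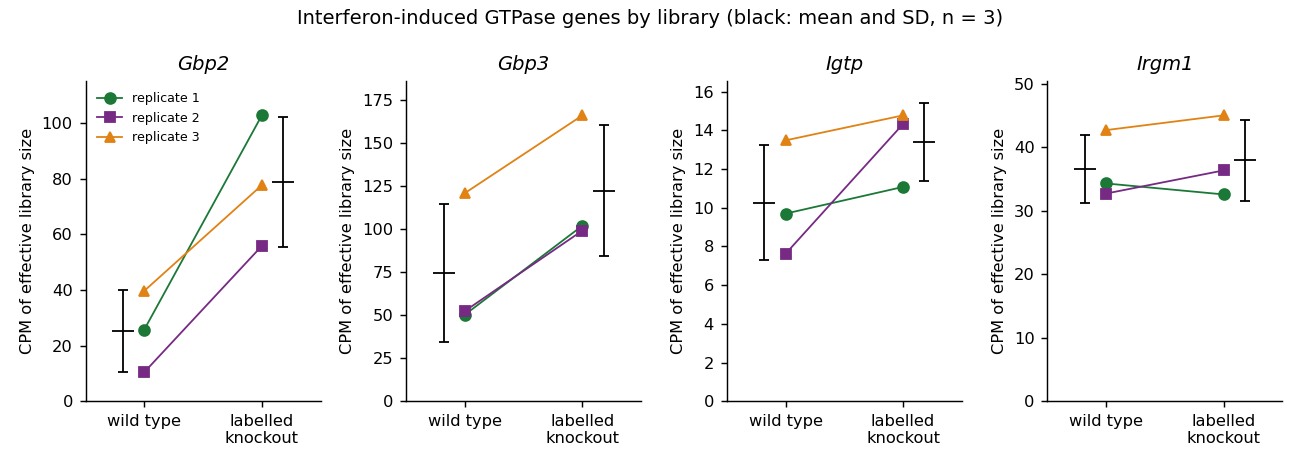
CPM (vertical axes start at 0) of Gbp2, Gbp3, Igtp and Irgm1 in the 6 libraries, where each line connects a pair and black bars show the group mean with its SD (n = 3). All 3 Gbp2 lines slope upward and the groups do not overlap, the Gbp3 and Igtp lines slope upward with overlapping groups, and Irgm1 lies between 32.6 and 45.1 CPM throughout.

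Relatives of Gbp2 and Gbp3, singled out after their values were seen, did not pass the main limma fit or the same fit with the pairs. Some passed in other fits. Gbp7 was at 64.1, 144.5 and 381.5 CPM in wild type and at 126, 324 and 570 CPM in labelled knockout libraries (log2 change 0.90, limma adjusted p = 0.0506 with the pairs). Gbp2b, a close relative of Gbp2, was at 12.7 ± 4.36 and 24.5 ± 7.18 CPM (log2 change 0.91, adjusted p = 0.104 with the pairs). Both were higher in each pair. DESeq2 with the pairs called Gbp7 and Gbp2b (adjusted p = 3.49e-13 and 0.000489), as did edgeR with the pairs and no filter (0.00574 and 0.0331) and limma with the pairs and without pair 1 (0.00546 and 0.0199). edgeR with the pairs and the filter called neither (0.0669 and 0.123). Gbp7 alone of these relatives passed limma with the pairs under quantile normalization (0.0254) and equal library totals (0.0468), where the latter called 0.19% of genes higher and 0.579% lower (0.769% in all). Gbp4 (log2 change 0.16) and Gbp9 (0.32) were at 3.54 CPM or less on average in either group, higher in pairs 1 and 2 and lower in pair 3. Gbp8, below the filter, had 3, 12 and 15 reads in wild type and 2, 125 and 32 reads in labelled knockout libraries, so it was lower in pair 1 and higher in the others. These genes are close copies of each other, so reads may have been assigned among them and single values are uncertain.

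Among the transcription factors of the pathway, Stat2 was lower and Irf1 higher in each pair, both by small amounts. Stat2, the partner of IRF9, was at 18.6, 23.6 and 36.8 CPM in wild type and at 18.5, 17.97 and 27.0 CPM in labelled knockout libraries. The difference was near 0 in pair 1 and the groups overlapped (log2 change -0.27, 95% interval with the pairs -0.54 to -0.0037, adjusted p = 0.235 with the pairs). Without pair 1 limma with the pairs called Stat2 lower (log2 change -0.41, adjusted p = 0.0448). That fit called 4.61% of genes higher and 3.36% lower (7.97% in all). Irf1, an activator induced above all by type II interferon, was at 31.5, 48.4 and 52.3 CPM in wild type and 38.2, 54.7 and 54.0 CPM in labelled knockout libraries (log2 change 0.16, 95% interval with the pairs -0.0075 to 0.34). Without wild type replicate 1 its direction turned, to -0.055. Irf9, the DNA-binding subunit of the complex, was at 10.1 ± 1.78 and 10.8 ± 1.91 CPM (log2 change 0.089, and -0.051 without wild type replicate 1). Irf7, the factor that amplifies type I interferon production, was under 1 CPM on average, with 22, 41 and 32 reads in wild type and 15, 29 and 12 reads in labelled knockout replicates 1, 2 and 3. It was lower in each pair, with overlapping groups, and edgeR without the low-value filter did not call it (adjusted p = 0.490 with the pairs).

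The cytosolic RNA sensors did not share a direction. Ddx58, which encodes the sensor RIG-I, was at 8.63, 14.0 and 20.6 CPM in wild type and 10.5, 14.1 and 15.3 CPM in labelled knockout libraries, higher in pairs 1 and 2 and lower in pair 3 (log2 change -0.045, and 0.0060 with equal library totals). Ifih1, which encodes the sensor MDA5, was at 2.59, 1.23 and 1.63 CPM in wild type and 1.70, 3.74 and 2.30 CPM in labelled knockout libraries. Its level was lower in pair 1 and higher in pairs 2 and 3, where the myeloid sum was also higher, and the part of the myeloid transcripts in this was not tested. Dhx58, which encodes the regulator LGP2, was at 4.97, 5.44 and 6.55 CPM in wild type and 4.69, 4.54 and 5.41 CPM in labelled knockout libraries, lower in each pair (log2 change -0.17, adjusted p = 0.419 with the pairs).

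Of the antiviral effectors, Bst2 had the lowest log2 change. Bst2 encodes tetherin, which holds budding virus at the cell surface. Its level was 44.8, 27.2 and 17.2 CPM in wild type and 32.1, 24.97 and 13.3 CPM in labelled knockout libraries. Each pair was lower in labelled knockout, while the spread across replicate numbers was wider than the difference (log2 change -0.31, 95% interval with the pairs -0.54 to -0.083, adjusted p = 0.166 with the pairs). Left out singly, wild type replicate 1 or labelled knockout replicate 3 turned the unpaired log2 change to 0.027 and 0.034. Bst2 also marks plasmacytoid dendritic cells, and the 7 other markers of those cells, led by Tcf4, Ly6d and Cox6a2, summed to 165, 239 and 169 CPM in wild type and 158, 211 and 154 CPM in labelled knockout libraries. Tcf4, which B-lineage cells also express, gave nearly all of that sum (163.7, 234.3 and 151.04 CPM in wild type and 155.2, 209.7 and 152.1 CPM in labelled knockout), Siglech, Ccr9, Klk1 and Pacsin1 were at or under 0.599 CPM in every library, and the part of these cells was not tested.

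Eif2ak2, which encodes the kinase PKR that halts translation on sensing double-stranded RNA, had the narrowest paired interval of the tested members. It was at 35.9, 43.7 and 37.6 CPM in wild type and 38.6, 48.0 and 41.4 CPM in labelled knockout libraries, with pair changes of 0.099, 0.13 and 0.14 (mean 0.12, 95% interval with the pairs -0.021 to 0.27, adjusted p = 0.286). Ifit2, which binds viral RNA, followed the replicate number more than the group, at 1.603, 7.996 and 4.86 CPM in wild type and 1.40, 7.35 and 5.33 CPM in labelled knockout libraries. Its log2 change of -0.038 had an unpaired 95% interval of -1.58 to 1.502 and a paired one of -0.36 to 0.29. The exonuclease gene Isg20 was at 1.94 ± 0.530 and 1.68 ± 0.651 CPM, lower in pairs 1 and 3. Oasl1, which encodes a relative of the oligoadenylate synthetases, was at 0.374, 0.802 and 1.39 CPM in wild type and 0.399, 1.86 and 1.38 CPM in labelled knockout libraries, so its mean change of 0.23 came from pair 2.

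Ifi35, which encodes a partner of the interferon-induced protein NMI, was at 22.5, 22.99 and 25.1 CPM in wild type and 29.1, 32.6 and 24.9 CPM in labelled knockout libraries. It was higher in pairs 1 and 2, level in pair 3, and its groups overlapped (log2 change 0.28, 95% interval with the pairs -0.0078 to 0.56, adjusted p = 0.245). Xaf1, which encodes a binding partner of the apoptosis inhibitor XIAP, was at 1.69 ± 0.565 and 1.80 ± 0.657 CPM, a log2 change of 0.050 that was -0.11 under quantile normalization.

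The other 14 members, which include many genes commonly used as markers of a type I interferon response, gave few reads in every library. Their means over the 6 libraries ran from 0.135 CPM for Usp18 to 0.635 CPM for Irf7, and single libraries held between 1 and 82 reads of a gene. Together they summed to 3.45, 3.63 and 3.42 CPM in wild type replicates 1, 2 and 3 and to 3.99, 8.31 and 4.34 CPM in labelled knockout replicates 1, 2 and 3. Labelled knockout replicate 2 stood above the others, and it held the highest value for 7 of the 14 genes. Of the 14, 4 were higher and 1 lower in all 3 pairs, against 21.4% and 10.7% of the 2753 genes below the filter with a read total in the same range of 30 to 151. edgeR without a filter, with and without the pairs, called 0 of the 14, where it called 1.66% and 0% of 20529 genes, and limma without a filter called 0 as well. Without the pairs 4 of all 31 members, and with them 10, had an unadjusted edgeR p under 0.05. The share of all 20529 genes under that level was not counted, so these counts are not read as an excess.

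Rsad2, Oas1a and Oas3 gave most of the difference between the pair 2 libraries in the sum of the members under 1 CPM. Rsad2, which encodes the antiviral enzyme viperin, had 8, 11 and 7 reads in wild type and 10, 82 and 17 reads in labelled knockout libraries, equal to 0.214, 0.276 and 0.150 CPM and to 0.333, 2.06 and 0.403 CPM. The groups did not overlap, as for 6.39% of genes in that read range (2.11% had the labelled knockout lower), and replicate 2 was far above the rest (log2 change by edgeR with the pairs 1.79, adjusted p = 0.136). Oas1a, which encodes an oligoadenylate synthetase that activates RNase L, had 3, 7 and 8 reads in wild type and 3, 54 and 26 reads in labelled knockout libraries. Oas3, which encodes a larger synthetase, had 7, 14 and 7 reads against 5, 44 and 19 reads. In labelled knockout replicates 2 and 3 both lay above every wild type library, and in replicate 1 they lay within the wild type range (edgeR adjusted p = 0.108 and 0.284 with the pairs). The myeloid sum was 2902 and 1562 CPM in replicates 2 and 3, and its part was not tested. Rtp4, a chaperone gene for membrane receptors, had 21 reads in labelled knockout replicate 2 and 2 to 5 reads in the other libraries.

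Ifit3 was low but higher in every labelled knockout library, also in replicate 1. It encodes a partner of IFIT1 in binding viral RNA and had 2, 1 and 4 reads in wild type and 5, 12 and 12 reads in labelled knockout libraries. Wild type replicates 1 and 2 were under the floor of 3 reads. The groups did not overlap, as for 6.39% of genes below the filter with 30 to 151 reads in all (2.11% had the labelled knockout lower). The summed reads of 7 and 29 gave 4.59 times as many per unit of depth (95% exact conditional interval 1.97 to 12.4, for counting error only). edgeR without a filter did not call it (adjusted p = 0.148 with the pairs). Ifit1, the cap-sensing member of the family, had 8, 10 and 8 reads in wild type and 13, 9 and 24 reads in labelled knockout libraries, with the groups overlapping.

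The genes of the ISG15 system were also below the filter. Isg15, the ubiquitin-like modifier, had 14, 14 and 21 reads in wild type and 13, 9 and 19 reads in labelled knockout libraries. The ratio per depth was 0.926 (95% exact conditional interval 0.596 to 1.43, for counting error only). Usp18, the protease that removes ISG15 and dampens receptor signalling, had 8, 1 and 3 reads against 7, 9 and 2 reads. The GTPases Mx1 and Mx2, which block viral nucleocapsids, had 3 to 13 and 3 to 28 reads per library. Mx2 was highest in wild type replicate 1, at 28 reads, and in its labelled knockout partner, at 19. Oas2 had 5 to 16 reads and Oasl2 9 to 25 reads, the latter higher in each pair. Ifi44 was highest in wild type replicate 3, at 29 reads, and had 2 to 8 reads elsewhere.

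**Figure D3:**
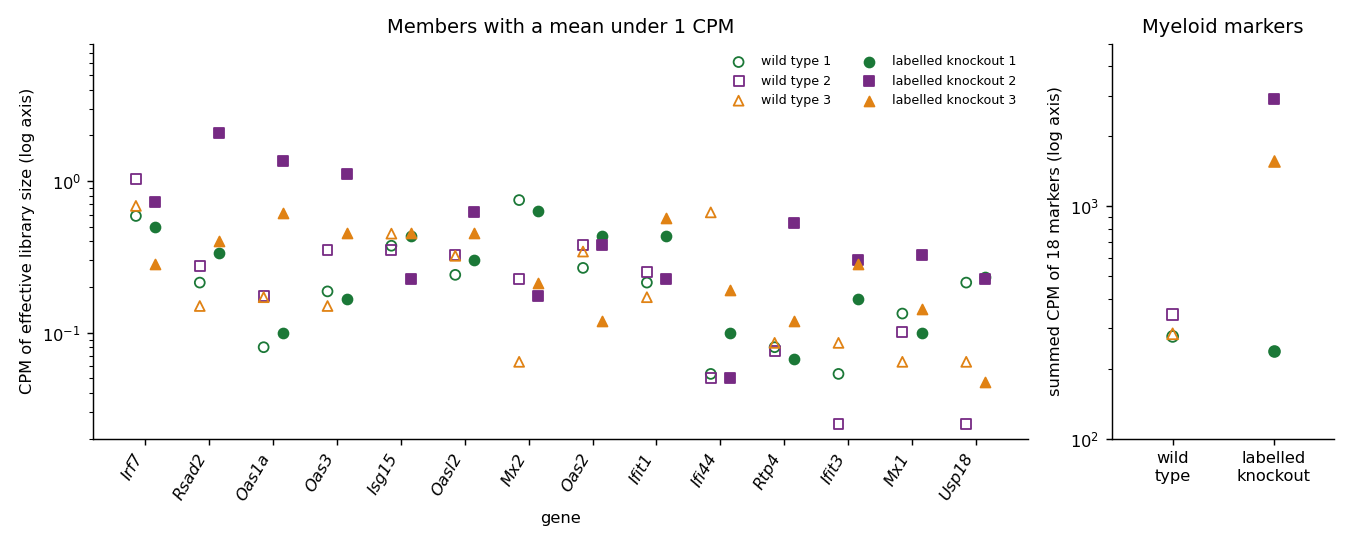
Left, level in CPM of effective library size (log axis) of the 14 members with a mean under 1 CPM in each library, open symbols for wild type and filled ones for labelled knockout. Right, summed CPM of 18 myeloid markers per library (log axis). Labelled knockout replicate 2 lies at 2.06 CPM for Rsad2 and 1.35 CPM for Oas1a and at 2902 CPM for the myeloid sum, while Isg15 stays between 0.226 and 0.451 CPM in every library.

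The remaining pathway was read from 6 lists with 162 entries, of which 149 matched a gene of the table and 116 were tested. Ligand genes were near the limit of detection. The 10 interferon ligands matched gave 85 reads over all 6 libraries, at most 11 in any library, and Ifnb1 gave 1. Ifng, the type II interferon made by T and NK cells, had 4, 2 and 2 reads in wild type and 11, 4 and 10 reads in labelled knockout libraries. It was higher in each pair, and the ratio per depth was 3.46 (95% exact conditional interval 1.51 to 8.87, for counting error only). Most T and NK cell markers, largely under 1 CPM on average, were also higher in each pair, and their part was not tested.

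The receptor and kinase genes named here were tested, and none passed in either fit. Ifnar1, a type I receptor chain, was at 28.9, 42.9 and 45.3 CPM in wild type and 36.6, 52.0 and 56.2 CPM in labelled knockout libraries, higher in each pair (log2 change 0.30, limma adjusted p = 0.0957 with the pairs). Ifngr2, a type II receptor chain, went the same way (0.36, adjusted p = 0.113), while Ifnar2 (0.074) and Ifngr1 (-0.034) were nearer 0. Jak1 (0.22), Jak2 (-0.11) and Tyk2 (-0.10), the receptor-bound kinases, did not pass.

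Among 17 tested genes of nucleic acid sensing and 10 inhibitors of the pathway, 0 passed in either fit, with median log2 changes of 0.080 and -0.021. Socs1, which blocks JAK kinases, was at 8.07, 11.2 and 15.1 CPM and at 6.85, 11.0 and 15.7 CPM. Among 62 tested other interferon-induced genes, 1 rose and 0 fell with the pairs (0.133% and 0.741% of all tested genes), and 0 passed without them (0.00949% of all tested genes), with a median log2 change of 0.0053. That gene was Ifi209, also called Pyhin1, of the interferon-inducible p200 family of nuclear proteins. It was at 23.6, 40.5 and 62.2 CPM in wild type and 56.4, 67.9 and 157 CPM in labelled knockout libraries, higher in each pair with overlapping groups (log2 change 1.09, adjusted p = 0.0423 with the pairs and 0.9998 without). With the pairs, Ifi209 was not called by limma with no filter on low values (adjusted p = 0.121), by limma without pair 2 or pair 3 (0.109 and 0.197) or by edgeR (0.0630). With the pairs it was called by DESeq2 (9.87e-12), by edgeR with no filter (0.00318), and by limma under quantile normalization (0.0308), equal library totals (0.0468) and without pair 1 (0.00300). The limma fits without pair 2 or without pair 3 called 0 of 10533 genes higher and 0 lower. Of 17 tested genes of class I presentation and the immunoproteasome, 0 passed in either fit (median -0.055). B2m, the light chain of class I molecules, was at 414, 605 and 668 CPM and at 372, 661 and 607 CPM, and the heavy chain genes H2-K1 (-0.35) and H2-D1 (-0.069) did not pass either.

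Promoter sequence was at hand for 25 of the 31 members, in 31 windows. The missing entries are Dhx58, Mx1, Mx2, Oas2, Rtp4 and Usp18. The response element core GAAANNGAAA, on either strand, was present in windows of 15 of the 25 members, and in 48.4% of their windows against 3.44% of all 32851 promoter windows of the same 300 bases. It was present in 9 of 16 tested members and in 6 of 9 members below the filter. Of its 23 matches, overlapping ones included, 20 began before the gene start, and they ran from 222 bases before to 32 bases after it. The gamma-activated site core TTCNNNGAA, which reads the same on both strands, was present in 8 of 25 members, Irf1 and Bst2 among them, in 25.8% of their windows against 8.30% of all windows. Gbp2 and Gbp3 had none in these windows. Matches of letters describe the sequence of genes that were chosen as interferon response genes. They do not depend on these libraries and do not show that a factor was bound.

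**Figure D4:**
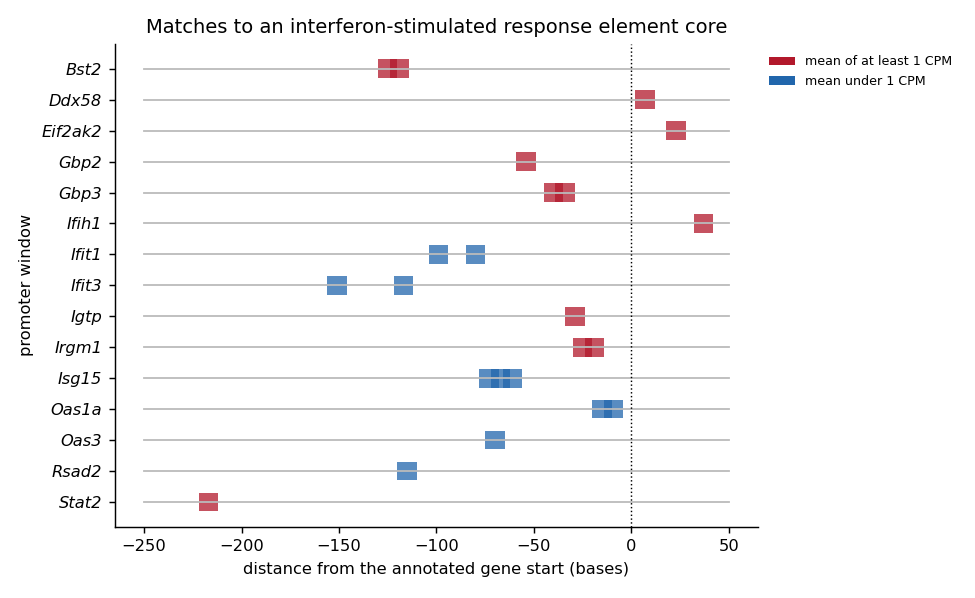
Position of each match to the interferon-stimulated response element core (bars) relative to the annotated gene start at 0 (horizontal axis, bases) in the 15 member windows that hold one, coloured by whether the mean level was at least 1 CPM or under it. Matches begin 59 bases before the start in Gbp2, 45 and 39 before it in Gbp3 and 32 after it in Ifih1, and both colours occur on either side of 100 bases before the start.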

How the data were processed

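The deposited table is named FPKM, but its values are a signal on the scale of CPM: within a library all deposited values were whole multiples of what a single read was worth (100% within 0.01 reads), so reads per gene were divided by an effective library size and not by length. CASAVA, STAR 2.4.2a, HTSeq, edgeR and the build mm9 are listed, without roles, in the submitters' processing notes. Libraries were directional per the labels' protocols; the sources used here give neither the annotation nor the strand setting of counting.

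Genes with a mean of at least 1 CPM (10533 of 21448) were tested with limma on log2(CPM + 1), two-sided, with a trended prior variance and Benjamini-Hochberg adjustment at 0.05. The fit without the replicate number was the main one. Same-numbered libraries deviated together across genes (r = 0.73, 0.73 and 0.84), so the numbers were taken as pairs on the data alone, and the paired fit stands beside it. edgeR's quasi-likelihood test and DESeq2 were run on recovered reads. No libraries of a group agreed within counting noise (chi-square per degree of freedom at least 85.8). Tools were R 4.3.3, limma 3.58.1, edgeR 4.0.16, DESeq2 1.42.0, Python 3.11.15 and matplotlib 3.10.9. Simulated reads were run through limma and edgeR only, with and without the pairs and with no filter, and the outcome is not reported here.

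The members and lists were chosen with earlier results of these data known. All members are named; of other pathway genes, those set by name and any that passed are named, with the exceptions stated, and some values are not reported here. Close gene copies may share reads. For a group at few reads, the floor is 3 reads, 0.064 to 0.100 CPM per library. Alternatives changed the pseudocount, filter, scaling, test and libraries.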

Additional observations from a re-analysis of the deposited data

How the results depend on the processing

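With the replicate block (the pairs), the counts of members called stayed at 0 higher and 0 lower the median member change stayed at 0.089, and the block changed no member's call. In fits added after the data were seen, quantile normalization with the block called 1 member higher (Gbp3), and DESeq2 with the block, and edgeR with the block and no filter, called 2 (Gbp2 and Gbp3). With a library left out or a pair left out of the block fit, counts ran from 0 to 2 higher and from 0 to 1 lower, the latter Stat2. All of these member calls came from the block fit without pair 1, which called 4.61% of genes higher and 3.36% lower (7.97% in all). The median member change ran from 0.0084 to 0.25 with a library or pair left out (0.0098 without wild type replicate 1, 0.011 without labelled knockout replicate 2), was 0.17 by edgeR with the block and no filter, and was -0.15 without both labelled knockout replicates 2 and 3. In that last fit these changes also turned sign: Irf1 -0.17, Irf9 -0.11, Oasl1 -0.37, Ifih1 -0.033, Bst2 0.21, Irgm1 -0.15, Xaf1 -0.36 and Eif2ak2 -0.014. Equal library totals, with or without the block, gave Ifit2 0.00095 and Ddx58 0.0060, and quantile normalization, with or without it, gave Xaf1 -0.11. With a library or pair left out, signs turned for Irf1 (range -0.055 to 0.33), Irf9 (-0.051 to 0.20, and to 0.19 for single libraries), Ifit2 (-0.53 to 0.50, and 0.0029 with the block and no pair 1), Isg20 (-0.32 to 0.040), Ifih1 (-0.042 to 0.71), Ddx58 (-0.35 to 0.24, and 0.13 with the block and no pair 3), Bst2 (-0.64 to 0.034), Irgm1 (-0.076 to 0.16) and Xaf1 (-0.14 to 0.25). The cause was not tested. Gbp2 and Gbp3 kept their direction in every fit run. The 14 members under 1 CPM rest on 1 to 82 reads per library, where a change of a few reads is not detectable.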

Other observations

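Several interferon-linked genes outside the members, singled out after their values were seen, were high in labelled knockout replicates 2 and 3 and not in replicate 1. Tlr7 and Tlr8, endosomal receptors for single-stranded RNA, were at 0.374, 0.426 and 0.385 CPM and at 0.534, 1.03 and 1.11 CPM in wild type replicates 1, 2 and 3. In labelled knockout replicates 1, 2 and 3 they were at 0.299, 6.40 and 3.84 CPM and at 0.200, 21.6 and 10.1 CPM. Tmem140 was at 1.04, 1.23 and 1.67 CPM in wild type and 0.832, 15.1 and 6.33 CPM in labelled knockout libraries, and Ifi204, of the p200 family, at 0.561, 0.877 and 0.321 CPM and at 0.133, 6.30 and 2.51 CPM. None of these passed (limma adjusted p with the pairs 0.218, 0.238, 0.244 and 0.319). The myeloid sum was 237, 2902 and 1562 CPM in the same labelled knockout libraries, and its part was not tested.

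Slfn2, a Schlafen family gene, and Cd274, which encodes PD-L1, were higher in all 3 pairs. Slfn2 was at 0.614, 1.53 and 17.1 CPM in wild type and 2.79, 17.0 and 21.6 CPM in labelled knockout libraries, and Cd274 at 5.18, 7.85 and 8.69 CPM and at 7.35, 18.3 and 13.4 CPM. Rnf213, a ubiquitin ligase gene, was lower in all 3 pairs, at 30.3, 91.2 and 38.1 CPM and at 15.4, 63.6 and 28.5 CPM (adjusted p = 0.188, 0.129 and 0.0950 with the pairs for these 3 genes).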
